A study of Mus musculus with 9 samples.

Results

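The SoxC, SoxD and SoxE transcription factor genes and Wwp2 were measured in 3 cell populations sorted from the developing mouse knee. They are 10 genes of 54532 in the expression table. They were chosen by symbol: Sox4, Sox11 and Sox12 make up SoxC, Sox5, Sox6 and Sox13 make up SoxD, Sox8, Sox9 and Sox10 make up SoxE, and Wwp2 is a known Sox9 target gene. All 10 had a row in the table, and all 10 passed the filter on low values.

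All embryos were at E14.5 (embryonic days) and carried the same pair of heterozygous reporter alleles, Creb5 3XHA-P2A-tdTomato/+ and Sox9 iresEGFP/+, so no library comes from an embryo without reporters. Knees were dissected by their fluorescence, dissociated with collagenase and sorted into double-positive cells (tdTomato and EGFP), RFP-only cells (tdTomato alone) and GFP-only cells (EGFP alone). Poly(A) RNA was sequenced in bulk from 3 independent litters, numbered 1, 2 and 5, which gives 3 libraries per population. Each population is a mixture defined by reporter protein at 1 stage, and one gate is set by a reporter on the Sox9 transcript itself, so differences in Sox9 RNA between populations with and without EGFP are part of the sort and are given here as a description only.

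Sox proteins bind DNA through a high-mobility-group box and act mostly in partnerships. In cartilage, the SoxE factor Sox9 switches on the matrix genes, and the SoxD factors Sox5 and Sox6, which have no activation domain of their own, strengthen its action on the same enhancers; SoxC factors act in mesenchymal progenitors and are needed for joint formation and skeletal outgrowth. Wwp2 encodes a ubiquitin ligase of the Nedd4 family, and its gene also holds the cartilage microRNA gene Mir140.

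The libraries held between 25199258 and 47079305 recovered reads. Replicate libraries differed by far more than counting noise, and every pair gave a chi-square of at least 46.6 per degree of freedom. The GFP-only library of litter 5 stood apart: it gave 374 and 341 per degree of freedom against litters 1 and 2, which gave 82.3 against each other. For Sox12, Sox13 and Sox10, values are given with and without it. Levels are normalized counts as the authors deposited them, and log2 fold changes are on the log2(normalized count + 1) scale from 1 limma fit over 17764 genes, with Benjamini-Hochberg adjusted p-values and a threshold of 0.05. In bulk samples, fewer cells of a type and less RNA per cell cannot be told apart.

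RFP-only cells differed most from GFP-only cells. Of the 10 genes, 6 were lower in RFP-only cells (Sox5, Sox6, Sox8, Sox9, Sox10 and Wwp2), 1 was higher (Sox4) and 3 did not pass, where 20.3% of all tested genes were called, 11.8% higher and 8.48% lower. Values of RFP-only and GFP-only libraries did not overlap for 8 of the 10, and for 39.4% of all genes. The median log2 fold change of the 10 genes was -2.22, against 0.05 over all tested genes. Double-positive cells had 5 of the 10 higher than RFP-only cells (Sox5, Sox6, Sox9, Sox10 and Wwp2) and none lower, where 2.85% of all genes were called, 1.8% higher and 1.05% lower; 7 of the 10, and 23.8% of all genes, had values that did not overlap. Against GFP-only cells, double-positive cells had only Sox4 called, higher, where 8.29% of all genes were called, 5.27% higher and 3.02% lower; 3 of the 10, the SoxC genes, and 28.1% of all genes had values that did not overlap. The count of called members was 2 with litter as a block and 3 with DESeq2. The medians of the 10 genes were 1.40 and -0.41 in these 2 comparisons, against -0.01 and 0.04 over all genes. Sox9 is counted here although the sort selects on its reporter, and the comparisons share libraries, so the lists of called genes are not independent of each other.

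**Figure D1:**
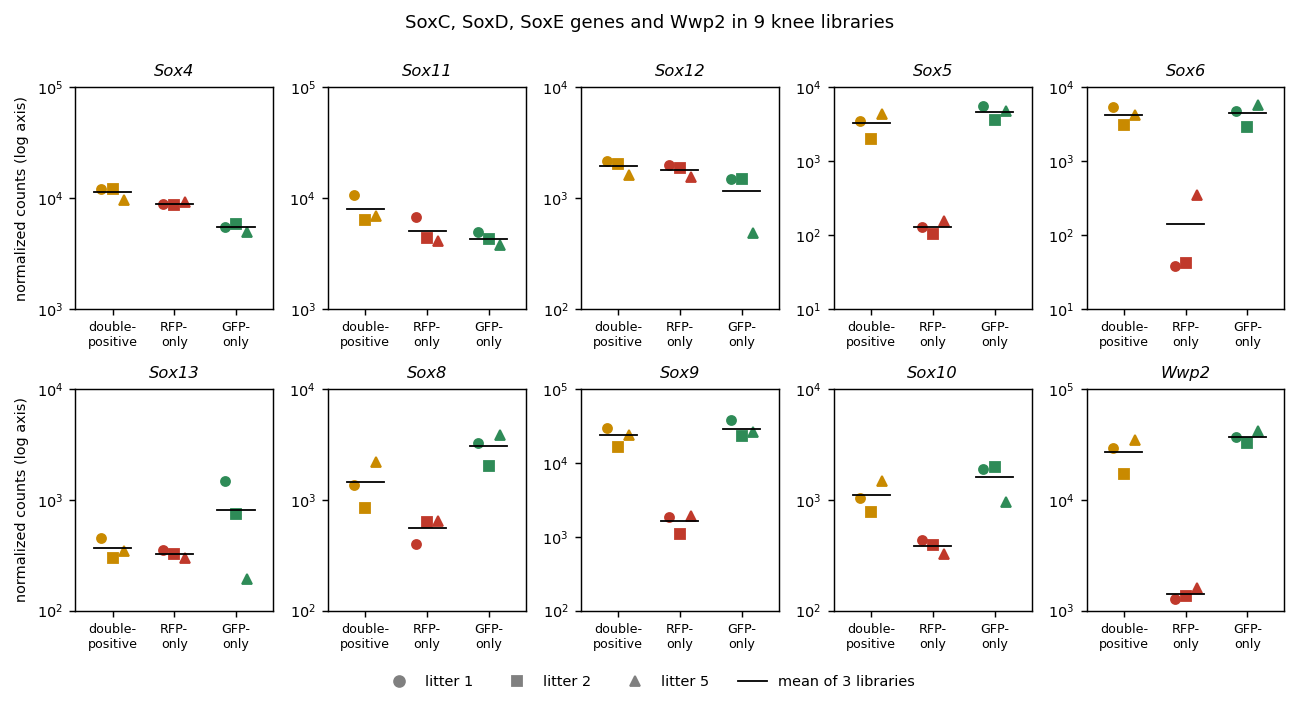
Normalized counts (log axis) of the 10 genes in double-positive, RFP-only and GFP-only cells; each point is 1 library, its shape gives the litter, and the line is the mean of 3 libraries. Sox5, Sox6, Sox9 and Wwp2 are lower in every RFP-only library than in any other, while Sox4 has its highest value, 12162, in double-positive cells and its lowest, 4935, in GFP-only cells.

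**Figure D2:**
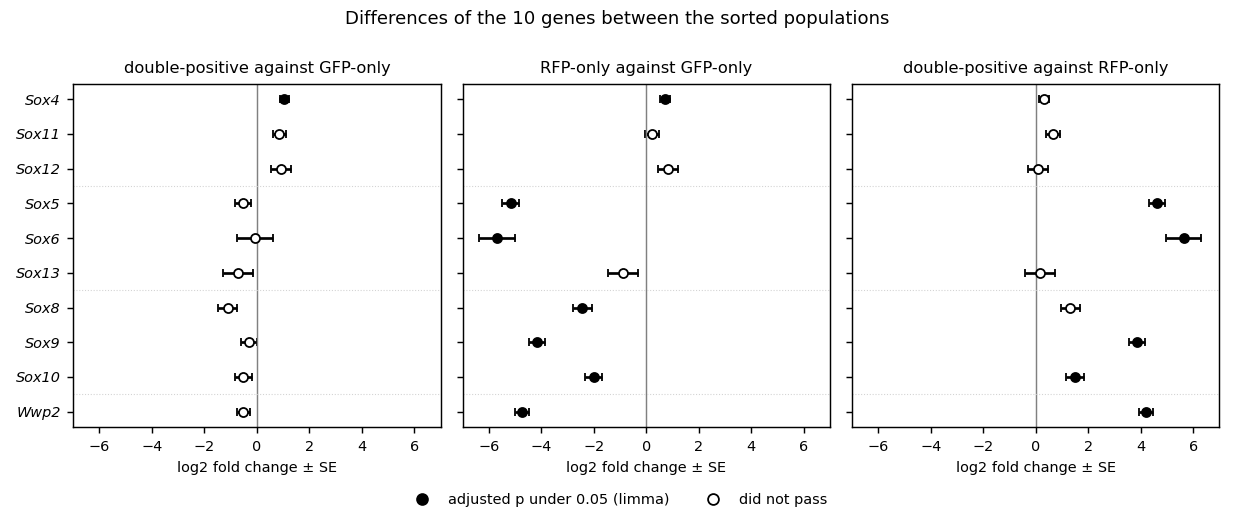
Log2 fold changes with standard errors of the 10 genes in 3 panels, which set double-positive cells against GFP-only ones, RFP-only cells against GFP-only ones and double-positive cells against RFP-only ones; filled points passed an adjusted p of 0.05 in limma. Filled points are 1, 7 and 5 of 10, and Sox4 is the only one of them to the right of 0 in the comparisons with GFP-only cells.

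SoxC genes, which encode activators of progenitor and neuronal programmes, had their lowest means in GFP-only cells. Sox4 (ENSMUSG00000076431, chromosome 13, 28948919 to 28953713, minus strand, build GRCm38) had 12162, 12002 and 9550.2 normalized counts in the double-positive libraries of litters 1, 2 and 5, 8859.7, 8584 and 9307 in RFP-only and 5479.7, 5864 and 4935 in GFP-only. The 3 groups did not overlap, in the order double-positive, RFP-only, GFP-only. Double-positive cells were higher than GFP-only cells by 1.05 ± 0.18 on the log2 scale (SE, limma adjusted p = 0.0063), a 2.06-fold difference seen in 3 of 3 litters at 1.15, 1.03 and 0.95. RFP-only cells were 1.65-fold higher than GFP-only cells (0.72 ± 0.18, limma adjusted p = 0.0167), a call that was lost without the RFP-only library of litter 1 (adjusted p = 0.0644) or of litter 5 (adjusted p = 0.0733). Double-positive and RFP-only cells differed by 0.33 ± 0.18, which did not pass (limma adjusted p = 0.527). The opposite-strand gene Gm26735 shares 2616 exon bases with Sox4 and had reads in 1 library, at 40.8 normalized counts in RFP-only litter 2.

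Sox11 (ENSMUSG00000063632, chromosome 12, 27334264 to 27342574, minus strand), a close paralogue with a stronger activation domain, had 10561, 6375 and 6942 normalized counts in double-positive cells, against 6783, 4369 and 4095 in RFP-only and 4895, 4282 and 3754 in GFP-only. All double-positive libraries lay above the GFP-only range, as did the RFP-only library of litter 1 but not those of litters 2 and 5. Double-positive against GFP-only came to 0.86 ± 0.26 and did not pass (limma adjusted p = 0.0669). Sox11 passed there in 3 of 20 alternatives. Among them were DESeq2 and the fit with litter as a block, which gave a limma adjusted p of 0.0268 for the same 0.86. Litter 1 had the highest Sox11 in all 3 populations. RFP-only against GFP-only was 0.21 ± 0.26 (limma adjusted p = 0.602) and double-positive against RFP-only 0.65 ± 0.26 (adjusted p = 0.279).

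Sox12 (ENSMUSG00000051817, chromosome 2, 152393611 to 152398063, minus strand), the weakest activator of the group, had 2173, 2026 and 1599 normalized counts in double-positive cells, against 1993, 1875 and 1554 in RFP-only and 1500.3, 1474 and 484 in GFP-only. No comparison passed: double-positive cells differed from GFP-only cells by 0.90 ± 0.38 (limma adjusted p = 0.174) and from RFP-only cells by 0.09 ± 0.38 (adjusted p = 0.987), and RFP-only cells from GFP-only cells by 0.81 ± 0.38 (adjusted p = 0.159). The value of 484 is the GFP-only library that stood apart, and without it the differences from GFP-only cells were 0.37 in double-positive and 0.27 in RFP-only cells.

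Markers of other cells differed between the populations too. The 6 neuron markers, among which Tubb3 is a known SoxC target, summed to between 2172 and 4719 normalized counts in double-positive libraries, 5075 and 6166 in RFP-only and 809 and 1221 in GFP-only, and none was at 0 over all libraries. Summed neuron markers and summed SoxC were both lowest in GFP-only libraries. The neuron markers were highest in RFP-only libraries and SoxC in double-positive ones. Single neuron markers went both ways: double-positive cells had 2 higher than GFP-only cells (Nefl and Nefm) and 1 lower (Stmn2), and RFP-only cells had 2 higher (Nefl and Nefm). The 7 interzone markers, genes of the future joint space, summed to 45827 to 98922 in double-positive cells, 33835 to 38617 in RFP-only and 6669.9 to 7014 in GFP-only, again with none at 0. Of the 7, double-positive cells had 5 higher than GFP-only cells and none lower, while RFP-only cells had 4 higher and 2 lower (Erg and Barx1); Gdf5 is itself 1 of the 7. Over all genes, 5.27% were higher and 3.02% lower in double-positive than GFP-only cells, and 11.8% and 8.48% in RFP-only than GFP-only cells. For both lists the part in the SoxC differences was not tested.

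The 3 SoxC targets listed for this comparison were Tead2, Gdf5 and Tubb3. Gdf5, a joint-forming signal that Sox11 is known to activate, had 16771, 8104 and 5235 normalized counts in double-positive cells, against 571, 130.2 and 668 in RFP-only and 793, 995 and 1385 in GFP-only. Double-positive cells were higher than GFP-only cells by 3.11 ± 0.58 (limma adjusted p = 0.00908) and higher than RFP-only cells by 4.60 ± 0.58 (adjusted p = 0.00159). RFP-only cells, where Sox4 was higher than GFP-only cells, had a Gdf5 difference of -1.48 ± 0.58 from GFP-only cells that did not pass (adjusted p = 0.0958). Tead2, a transcriptional partner in the Hippo pathway, averaged 5006 ± 1045 normalized counts in double-positive cells, 4634 ± 457 in RFP-only and 2658 ± 1135 in GFP-only (SD, n = 3 each). Neither Tead2 nor Tubb3 passed in any comparison in limma, and the Tead2 adjusted p was 0.0812 in the double-positive and 0.0702 in the RFP-only comparison with GFP-only cells.

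Sox5 and Sox6 shared 1 pattern and Sox13 had another. The letters of 2 RefSeq promoter windows (GRCm38.p6, 250 bases before to 50 after an annotated start) are shown for the pair that fell together in RFP-only cells, beside that of Wwp2, which had the profile nearest to Sox5. Capitals mark the Sox core motifs ACAAAG and ACAATG, searched on both strands. On the minus strand the Sox5 gene starts at 144781977 and the Sox6 gene at 116038796, so both windows are at internal starts. That of Sox6 is 1 of 6 windows and held 2 ACAAAG and 1 ACAATG. The window that spans the Sox6 gene start, not shown, held 1 ACAAAG and 0 ACAATG. Another of the 6 held neither motif. Which starts the sorted cells used was not tested.

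Sox5, chr6:143947057-143947356, minus strand: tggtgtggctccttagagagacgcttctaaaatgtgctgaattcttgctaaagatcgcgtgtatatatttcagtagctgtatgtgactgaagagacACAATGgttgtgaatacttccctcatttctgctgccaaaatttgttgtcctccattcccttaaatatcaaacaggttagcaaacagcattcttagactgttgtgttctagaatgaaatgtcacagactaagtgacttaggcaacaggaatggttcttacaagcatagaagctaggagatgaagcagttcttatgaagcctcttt
Sox6, chr7:115824661-115824960, minus strand: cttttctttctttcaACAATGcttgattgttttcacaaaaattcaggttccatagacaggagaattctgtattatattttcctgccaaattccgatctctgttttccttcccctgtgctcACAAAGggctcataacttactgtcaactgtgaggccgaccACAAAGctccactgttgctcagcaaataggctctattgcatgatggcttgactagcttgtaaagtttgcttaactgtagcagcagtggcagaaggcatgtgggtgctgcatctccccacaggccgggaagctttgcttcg
Wwp2, chr8:107436120-107436419, plus strand: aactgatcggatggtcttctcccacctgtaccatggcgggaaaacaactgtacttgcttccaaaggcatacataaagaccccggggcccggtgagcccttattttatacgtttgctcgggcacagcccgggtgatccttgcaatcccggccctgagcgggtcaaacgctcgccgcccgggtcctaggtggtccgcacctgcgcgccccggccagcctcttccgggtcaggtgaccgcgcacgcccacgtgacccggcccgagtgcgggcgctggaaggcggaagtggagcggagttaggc

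The table of windows matched 8 of the 10 genes, all but Sox9 and Sox10, with 13 windows. A motif of either kind was in the 1 Sox5 window, in 5 of the 6 Sox6 windows and in 6 of the 13 windows in all, against 28.6% of 32851 windows of the same length over all genes. No window of the other matched genes held either motif. The Sox6 windows belong to the same gene, so the 13 are not independent and the shares cannot be compared as a test. ACAAAG alone was in 5 of the 13 and in 18.7% of all windows, and ACAATG in 3 of the 13 and in 12.6% of all. A match of letters is a description and says nothing of binding.

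Sox5 (ENSMUSG00000041540, chromosome 6, 143828425 to 144781977, minus strand) had 3487, 2005 and 4373 normalized counts in double-positive cells, against 126, 102 and 154 in RFP-only and 5579.7, 3552 and 4754 in GFP-only. The RFP-only libraries were far below all others, and the double-positive and GFP-only ranges overlapped. Sox5 was 35.9-fold lower in RFP-only than GFP-only cells (log2 fold change -5.17 ± 0.31, limma adjusted p = 4.96e-06) and 24.7-fold higher in double-positive than RFP-only cells (4.63 ± 0.31, adjusted p = 5.04e-05). Double-positive against GFP-only was -0.54 ± 0.31 (adjusted p = 0.308). An antisense gene, Sox5os1, shares 1330 exon bases with Sox5, but its 9 values were between 0 and 22.4 normalized counts.

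Sox6 (ENSMUSG00000051910, chromosome 7, 115470872 to 116038796, minus strand), which forms dimers with Sox5, had 5474, 3093 and 4204 normalized counts in double-positive cells, against 38.1, 41.9 and 344 in RFP-only and 4783, 2936 and 5815 in GFP-only. The RFP-only library of litter 5 was well above the other two, yet below every double-positive and GFP-only library. RFP-only cells were 52.1-fold lower than GFP-only cells (-5.70 ± 0.68, limma adjusted p = 0.000233), by -6.94, -6.10 and -4.07 in litters 1, 2 and 5. Double-positive cells were 49.7-fold higher than RFP-only cells (5.64 ± 0.68, adjusted p = 0.00122), by 7.13, 6.17 and 3.61. With the RFP-only library of litter 5 left out, the log2 differences were -6.73 and 6.66, with adjusted p of 1.68e-05 and 4.79e-05. Double-positive against GFP-only was -0.07 ± 0.68 (adjusted p = 0.965), and its sign turned under quantile normalization and on leaving out any 1 of 3 libraries.

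Sox13 (ENSMUSG00000070643, chromosome 1, 133382303 to 133424377, minus strand), the SoxD member known mostly outside cartilage, had 453, 300.2 and 345 normalized counts in double-positive cells, against 356, 324 and 297 in RFP-only and 1485, 748 and 193 in GFP-only. The GFP-only values held both the 2 highest and the lowest of the 9, and no comparison passed: the limma adjusted p was 0.46 for double-positive and 0.305 for RFP-only cells, each set against GFP-only cells, and 0.983 between double-positive and RFP-only cells. Without the GFP-only library of litter 5, Sox13 was lower in double-positive cells, at -1.54 (limma adjusted p = 0.0165), and lower in RFP-only cells, at -1.70 (adjusted p = 0.00491), than in GFP-only cells. Sox13 averaged 366 ± 78.8 normalized counts in double-positive and 325 ± 29.5 in RFP-only cells (SD, n = 3 each), populations between which the fitted differences were 24.7-fold for Sox5 and 49.7-fold for Sox6.

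Neither SoxD nor SoxE had a member called by limma between double-positive and GFP-only cells, where 8.29% of all genes were called. At an unadjusted p under 0.05 there were 0 of 3 SoxD genes and 1 of 3 SoxE genes; edgeR called 0 in both groups, and DESeq2 called 0 SoxD genes and 1 SoxE gene, Sox8. Limma called Sox8 with double-positive litter 5 left out (-1.46, adjusted p = 0.0444) and Sox13 with GFP-only litter 5 left out.

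Sox9 (ENSMUSG00000000567, chromosome 11, 112782224 to 112787760, plus strand), the gene that carries the EGFP reporter, had 29767, 16565 and 24088 normalized counts in double-positive cells, against 1873, 1091 and 1891 in RFP-only and 37991, 22771 and 25967 in GFP-only. This is the order that the gates set: both EGFP-positive populations stood above the RFP-only libraries with no overlap, 14.53-fold in double-positive and 17.97-fold in GFP-only cells. RFP-only cells still had 1618 ± 457 normalized counts (SD, n = 3). The EGFP-positive populations overlapped each other, at -0.31 ± 0.30 for double-positive against GFP-only (limma adjusted p = 0.556), and this sign turned to 0.12 under quantile normalization.

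Sox8 (ENSMUSG00000024176, chromosome 17, 25565892 to 25570686, minus strand), a paralogue that is partly redundant with Sox9 in other tissues, had 1349.9, 837 and 2172 normalized counts in double-positive cells, against 395, 626 and 638 in RFP-only and 3237, 2036 and 3833 in GFP-only. Within every litter the order was GFP-only, double-positive, RFP-only. RFP-only cells were 5.42-fold lower than GFP-only cells (-2.44 ± 0.37, limma adjusted p = 0.000993). The middle position of the double-positive cells did not pass in either direction, at -1.12 ± 0.37 against GFP-only (limma adjusted p = 0.0867) and 1.32 ± 0.37 against RFP-only (adjusted p = 0.0952), whereas DESeq2 called both, with adjusted p of 0.0418 and 0.00906. The antisense gene 2810468N07Rik shares 329 of the 3118 exon bases of Sox8 and had 753, 518 and 470.3 normalized counts in double-positive cells, against 433, 519.8 and 439.6 in RFP-only and 699, 585 and 1195 in GFP-only. The sources used here give no strand setting for the counting. Reads over those shared bases cannot be told apart.

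Sox10 (ENSMUSG00000033006, chromosome 15, 79154908 to 79165240, minus strand), the SoxE factor of neural crest and glia, had 1045, 782 and 1486 normalized counts in double-positive cells, against 431, 388 and 325 in RFP-only and 1908, 1972 and 952 in GFP-only. The RFP-only libraries lay below all others, and the double-positive and GFP-only ranges overlapped. RFP-only cells were 4.03-fold lower than GFP-only cells (-2.01 ± 0.34, limma adjusted p = 0.0018). Double-positive cells were 2.81-fold higher than RFP-only cells (1.49 ± 0.34, limma adjusted p = 0.0395). That second call was lost with litter as a block (adjusted p = 0.0622), with no filter on low values, with no mean-variance trend and on leaving out any RFP-only library or, among double-positive libraries, litter 1 or 5, at adjusted p up to 0.163. Double-positive against GFP-only was -0.52 ± 0.34 (adjusted p = 0.359), and -0.86 (adjusted p = 0.0784) with the GFP-only library that stood apart left out.

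Schwann cells, the glia of peripheral nerves, are the usual source of Sox10, so 7 of their markers were listed beside it; none was at 0 over all libraries. Their summed level was 604 to 1774 normalized counts in double-positive libraries, 1462 to 2108 in RFP-only and 4513 to 12594 in GFP-only. In RFP-only against GFP-only cells, 2 were higher (Foxd3 and Ngfr), 2 lower (S100b and Mbp) and 3 did not pass. Foxd3, a neural crest factor that marks Schwann precursors, had 0, 7.02 and 17.9 normalized counts in double-positive cells, against 120.4, 92.9 and 58.8 in RFP-only and 1.65, 1.22 and 1.36 in GFP-only. It was higher in RFP-only cells by 5.19 ± 1.05 (limma adjusted p = 0.00538). Ngfr, the neurotrophin receptor gene of neural crest and immature Schwann cells, averaged 105 ± 48.5 normalized counts in double-positive cells, 597 ± 54.1 in RFP-only and 102 ± 64.8 in GFP-only, and its RFP-only difference from GFP-only cells was 2.72 ± 0.52 (limma adjusted p = 0.00389). Both were highest in RFP-only cells, where Sox10 was lowest. The sum of the 7 was highest in GFP-only cells, where mean Sox10 was highest. In the GFP-only libraries of litters 1, 2 and 5, 1 read came to 0.827, 1.22 and 1.36 normalized counts. Foxd3 thus rested on very few reads there. S100b, which cartilage also expresses, averaged 748 ± 443 in double-positive cells, 88.4 ± 42.5 in RFP-only and 4380.0 ± 3269 in GFP-only (SD, n = 3 each), and its means had the order of those of Sox10, at -5.48 ± 0.61 for RFP-only cells set against GFP-only ones (limma adjusted p = 0.000146). Double-positive cells had 4 of the 7 lower than GFP-only cells (Mbp, Cdh19, Fabp7 and S100b) and none higher; against RFP-only cells 1 was higher (S100b) and 3 lower (Ngfr, Erbb3 and Cdh19). Over all genes, 5.27% were higher and 3.02% lower in double-positive than GFP-only cells, and 11.8% and 8.48% in RFP-only than GFP-only cells. For double-positive against RFP-only cells these were 1.8% and 1.05%. The part of Schwann-lineage cells in the Sox10 values was not tested.

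**Figure D3:**
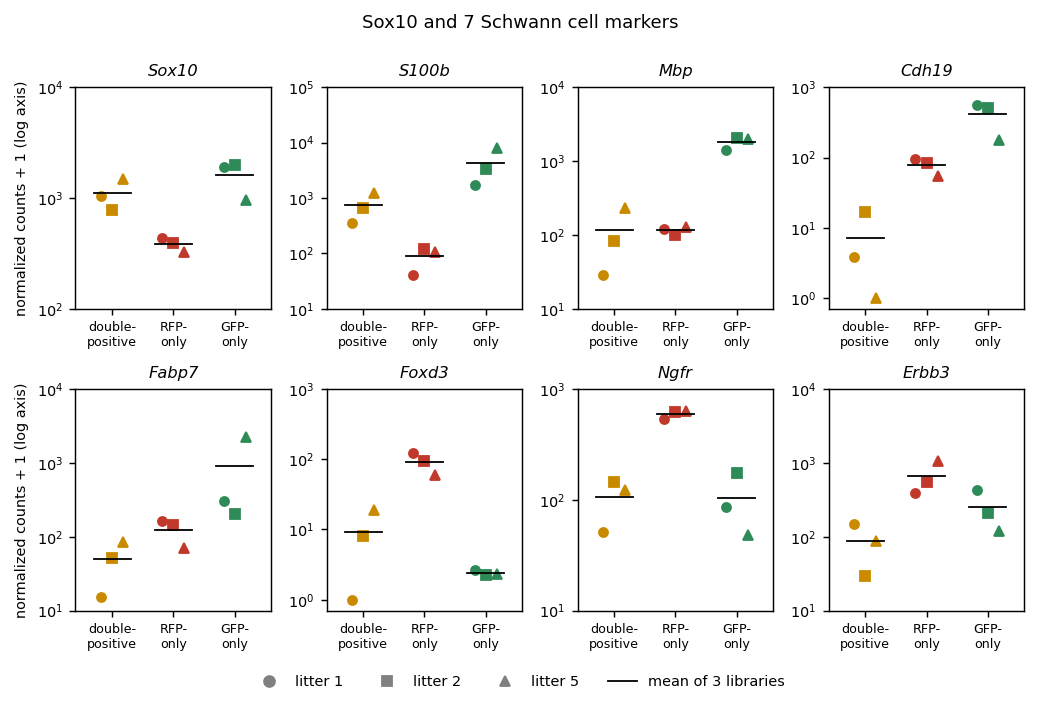
Normalized counts + 1 (log axis) of Sox10 and the 7 Schwann cell markers in double-positive, RFP-only and GFP-only cells; points are libraries, shapes are litters and lines are means of 3 libraries. Foxd3 and Ngfr have their highest values in RFP-only cells, where Sox10 lies between 325 and 431 and S100b has its lowest mean.

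Wwp2 (ENSMUSG00000031930, chromosome 8, 107436365 to 107558595, plus strand) had 29069, 17009.7 and 34590.4 normalized counts in double-positive cells, against 1263, 1342 and 1599 in RFP-only and 36993, 32307 and 41992 in GFP-only. RFP-only cells were 26.4-fold lower than GFP-only cells (-4.72 ± 0.26, limma adjusted p = 4.96e-06) and double-positive cells 18.5-fold higher than RFP-only cells (4.21 ± 0.26, adjusted p = 3.67e-05). Double-positive against GFP-only was -0.52 ± 0.26 (adjusted p = 0.245), with overlapping ranges. Of the 8 other Nedd4-family ubiquitin ligases, limma called 1, Nedd4l, in each comparison with GFP-only cells. Of all genes, 8.29% were called in the double-positive and 20.3% in the RFP-only comparison. DESeq2 called 2 of the 8 in the double-positive comparison, 1 higher and 1 lower. Between double-positive and RFP-only cells 0 were called. Nedd4l averaged 1384 ± 171 normalized counts in double-positive cells, 1733 ± 405 in RFP-only and 526 ± 259 in GFP-only (SD, n = 3 each). It was higher than GFP-only cells by 1.49 ± 0.32 in the double-positive libraries (limma adjusted p = 0.0181) and by 1.80 ± 0.32 in the RFP-only ones (adjusted p = 0.00287), the opposite direction from Wwp2 in the second of these.

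Mir140 lies within Wwp2 on the same strand and shares 70 exon bases with it, yet was listed at 0 in all 9 libraries, which were made from poly(A) RNA and not from small RNA, so the level of the microRNA was not measured. Its 3-prime arm, the arm found in the RefSeq table, is shown with its seed (bases 2 to 8) in capitals because any Wwp2 reads are also reads over its host transcript.

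mmu-miR-140-3p, chr8:107551288-107551308, plus strand: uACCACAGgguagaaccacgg

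Levels of different genes were compared per kilobase of merged exons. In double-positive cells Sox9 was highest at 5677 ± 1602 normalized counts per kb, followed by Wwp2 (3031 ± 1013), Sox4 (2344 ± 305) and Sox11 (958 ± 273), with Sox13 lowest at 85.0 ± 18.3 (SD, n = 3 each). In RFP-only cells Sox4 was highest at 1859.6 ± 76.1 per kb, followed by Sox11 (612 ± 178), Sox12 (406 ± 51.0) and Sox9 (391 ± 111), and Sox5 (8.87 ± 1.81) and Sox6 (9.54 ± 11.8) were lowest. GFP-only cells had Sox9 at 6992 ± 1941 per kb, Wwp2 at 4182 ± 546, Sox4 at 1132 ± 97.4 and Sox8 at 973 ± 294, and Sox13 had the lowest mean at 187 ± 150.3, from 344, 173 and 44.7 in litters 1, 2 and 5; in litter 1 it was above Sox12 and Sox6. Several neighbours in these orders differed by less than the larger SD of the pair. They were Wwp2 and Sox4, and the run from Sox8 through Sox12, Sox10 and Sox6 to Sox5, in double-positive cells. In RFP-only cells they were Sox12 and Sox9, Sox8 and Wwp2, and Sox6 and Sox5. In GFP-only cells they were Sox4 and Sox8, Sox10 and Sox11, and the run from Sox5 through Sox6 and Sox12 to Sox13. Over the longest transcript in place of merged exons, Wwp2 came to 6233 in double-positive and 8599 in GFP-only cells, above Sox9. Sox6 (491) and Sox5 (454) then came above Sox12 (434) and Sox10 (397) in double-positive cells, and Sox6 above Sox8 (484). In GFP-only cells Sox5 (639) came above Sox10 (579) and Sox11 (519), and in RFP-only cells Wwp2 (325) came above Sox8 (184). The order of these genes thus depends on the length used.

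Summed per kb, the SoxC genes made up 35.1 ± 7.04% of the 9 Sox genes in double-positive cells, 78.5 ± 2.10% in RFP-only and 17.4 ± 3.82% in GFP-only. SoxE made up 59.4 ± 6.39%, 18.9 ± 1.91% and 75.4 ± 3.23% in the same order, and SoxD 5.49 ± 0.667%, 2.56 ± 0.220% and 7.20 ± 0.595% (SD, n = 3 each). The ranges of the 3 populations did not overlap for the SoxC share: 29.3 to 42.9% in double-positive, 76.2 to 80.2% in RFP-only and 14.8 to 21.8% in GFP-only libraries. As Sox9 weighs heavily in these sums, the gates bear on them directly. Share and level did not follow one order, since summed SoxC was 3186 to 4295 per kb in double-positive, 2737 to 3111 in RFP-only and 1589.6 to 2069 in GFP-only libraries, highest where its share was in the middle. Over the longest transcript in place of merged exons, the SoxD share came to 9.13% in double-positive, 3.29% in RFP-only and 11.6% in GFP-only cells.

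Within SoxC, Sox4 held a like share in all 3 populations, at 62.9 ± 4.09% in double-positive, 64.8 ± 5.21% in RFP-only and 59.7 ± 4.78% in GFP-only cells. Within SoxD, Sox13 held 14.4 ± 2.34%, 81.1 ± 12.2% and 22.2 ± 14.3% in the same order. Within SoxE, Sox9 held 87.3 ± 3.72% in double-positive, 55.6 ± 9.73% in RFP-only and 82.0 ± 2.37% in GFP-only cells, and Sox8 held 7.10 ± 2.47%, 26.1 ± 8.19% and 11.6 ± 3.54% (SD, n = 3 each).

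**Figure D4:**
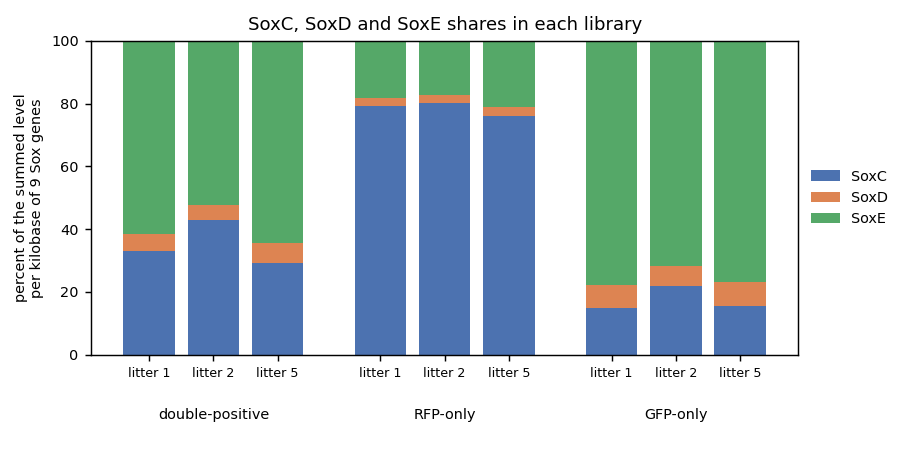
Percent of the summed normalized counts per kb of the 9 Sox genes held by SoxC, SoxD and SoxE in each library of double-positive, RFP-only and GFP-only cells. SoxC fills 76.2 to 80.2% of the RFP-only bars and 14.8 to 21.8% of the GFP-only bars, with the double-positive bars between.

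Ratios within a library show whether pairs of these genes moved by the same amount. Of 6 ratios, 2 differed between populations in an exact permutation test of the sum of squares between populations over the 9 libraries (1680 arrangements, smallest possible p = 0.00357, adjusted over the 6). The log2 ratio of Sox8 to Sox9 was -4.46, -4.30 and -3.47 in double-positive cells, against -2.24, -0.80 and -1.57 in RFP-only and -3.55, -3.48 and -2.76 in GFP-only (exact p = 0.0107, adjusted p = 0.0321). Thus Sox8 was lower in RFP-only cells by less than Sox9 was. The log2 ratio of Sox5 to Sox9 was -3.09, -3.05 and -2.46 in double-positive cells, against -3.88, -3.41 and -3.61 in RFP-only and -2.77, -2.68 and -2.45 in GFP-only (exact p = 0.0107, adjusted p = 0.0321), and every RFP-only library was below all others. Both ratios contain Sox9, on whose reporter the cells were sorted, so these calls are given as a description only. The same holds for the other ratios to Sox9. Neither call held with arrangements kept within litters, where 216 arrangements allow no p under 0.0278 (adjusted p = 0.0556 for both), and 6 of the 9 repeats without 1 library called 0 of the 6 ratios.

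The ratios of Sox6 to Sox9 and Sox5 to Sox6 hung on 1 library. Sox6 to Sox9 was -2.44, -2.42 and -2.52 in double-positive cells, against -5.58, -4.67 and -2.45 in RFP-only and -2.99, -2.95 and -2.16 in GFP-only on the log2 scale (exact p = 0.143, adjusted p = 0.286). Sox5 to Sox6 averaged -0.41 ± 0.40 in double-positive, 0.60 ± 1.54 in RFP-only and 0.07 ± 0.31 in GFP-only cells (exact p = 0.475, adjusted p = 0.475), with RFP-only values of 1.71, 1.26 and -1.16. With the RFP-only library of litter 5 left out, both had an adjusted p of 0.0268 in the exact permutation test. Wwp2 to Sox9, not corrected for gene length, was 0.18 ± 0.30 in double-positive, -0.17 ± 0.44 in RFP-only and 0.39 ± 0.38 in GFP-only cells (SD, n = 3 each, exact p = 0.254, adjusted p = 0.304). Sox4 to Sox11 was 0.53 ± 0.36, 0.85 ± 0.41 and 0.34 ± 0.15 in the same order (exact p = 0.25, adjusted p = 0.304). In every litter the Sox4 to Sox11 ratio was highest in RFP-only and lowest in GFP-only cells. Permuted within litters, its exact p was 0.0278 (adjusted p = 0.0556), the smallest possible, as for the Sox8 to Sox9 and Sox5 to Sox9 ratios.

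**Figure D5:**
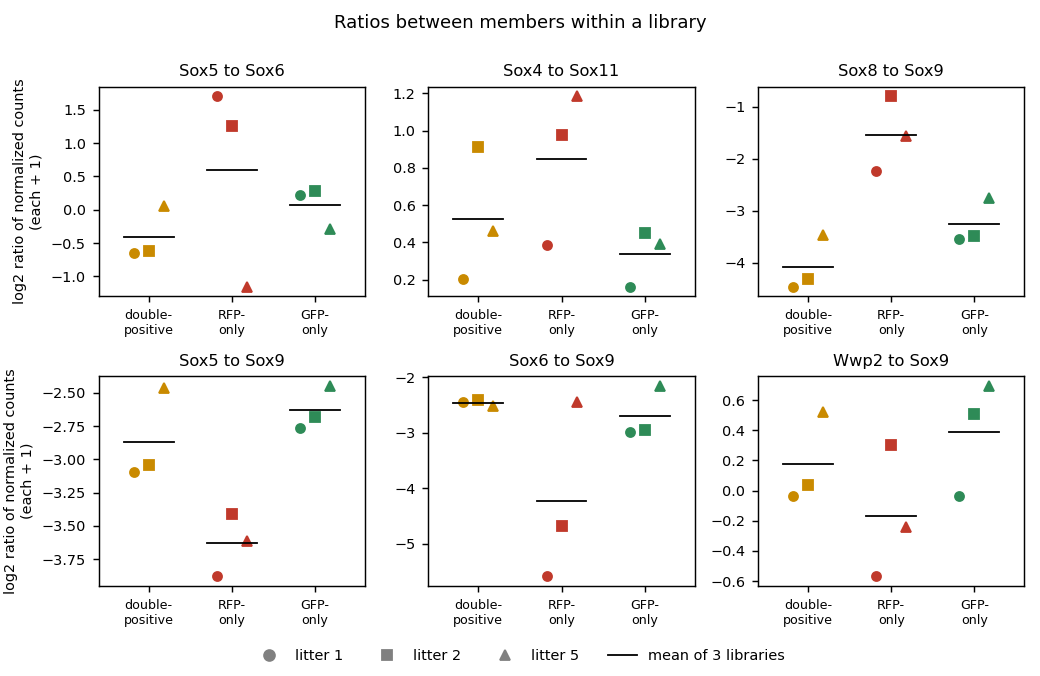
Log2 ratios of normalized counts (each + 1) for 6 pairs of genes within each library of double-positive, RFP-only and GFP-only cells; shapes are litters and lines are means of 3 libraries. Sox8 to Sox9 is highest in RFP-only cells, from -2.24 to -0.80, and the RFP-only library of litter 5 sits apart in both ratios with Sox6.

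Genes with the most similar profile were taken as those with the smallest root mean square difference of centred log2 values over the 9 libraries, among 11915 genes with a mean of at least 100. Nearest to Sox5 was Wwp2 itself, at 0.26 log2 units, then Fzd9, a Wnt receptor gene, at 0.43 and Papss2, which makes the sulfate donor for cartilage proteoglycans, at 0.43. For Wwp2 the order was Sox5 (0.26), Papss2 (0.29) and Sox9 (0.38). For Sox9 it was Saa1 (0.36), Wwp2 (0.38) and Foxc1 (0.42), with Sox5 at rank 5 and 0.48. Fzd9, at 0.75, and Sox5, at 0.87, were nearest to Sox6, and both were at a distance larger than those of the 3 genes above. Fzd9 averaged 3053 normalized counts in double-positive, 132 in RFP-only and 6574 in GFP-only cells. The nearest genes to Sox4 were C2cd3 (0.09), Sulf2 (0.11) and Fzd2 (0.12), and its paralogues Sox11 and Sox12 ranked only 536 and 1564 at 0.34 and 0.41. Sox8 had Slc2a1, a glucose transporter gene, at 0.25, Sox10 had Myo1d at 0.20, Sox12 had Tbc1d24 at 0.09, Sox11 had Homer3 at 0.18 and Sox13 had Aacs at 0.39. Tbc1d24 and Aacs had their lowest values, 490 and 1635, in the GFP-only library of litter 5, as Sox12 and Sox13 did. Distances without that library were not computed. Profiles over so few libraries share their populations and their depth, so these distances are a description.

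Genes that Sox9 and the SoxD factors are known to act on were set beside them. All 15 listed cartilage matrix genes were lower in RFP-only than GFP-only cells (median log2 fold change -7.52), beside 8.48% of all genes. All 15 were higher in double-positive than RFP-only cells (median 5.60), beside 1.8% of all genes. Both comparisons set cells sorted with the Sox9 reporter against cells sorted without it, and the list was chosen with earlier results known. These counts are thus given as a description only. Against GFP-only cells, 10 of the 15 were lower in double-positive cells and 5 did not pass (median -1.79, beside 3.02% of all genes lower); edgeR called 6 lower and DESeq2 11. None of Sox5, Sox6 and Sox9 passed there; the difference between the change of the matrix genes and that of the Sox genes was not tested. Their summed level was 438815 to 1164589 normalized counts in double-positive, 10866 to 22047 in RFP-only and 1888456 to 2578333 in GFP-only libraries. Col2a1, the main cartilage collagen, had 152097, 143506 and 394725 normalized counts in double-positive cells, against 2652, 5859 and 4837 in RFP-only and 737693, 1074923 and 453528 in GFP-only, and Col2a1 in double-positive cells differed from GFP-only ones by -1.79 ± 0.45 (limma adjusted p = 0.0321). Other matrix genes lower there were Col11a1, a fibril collagen (-1.89 ± 0.33, limma adjusted p = 0.00645), and Hapln1, which links aggrecan to hyaluronan (-2.58 ± 0.46, adjusted p = 0.00711). The 7 prehypertrophic markers, genes of maturing chondrocytes, summed to 5777 to 21106 in double-positive, 6479 to 11413 in RFP-only and 80333 to 198909 in GFP-only libraries, with none at 0, and their part in these differences was not tested.

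Of 12 cofactors known to work with Sox9, 3 were higher in double-positive than GFP-only cells, beside 5.27% of all genes. In RFP-only against GFP-only cells 5 were higher and 1 lower, beside 11.8% and 8.48% of all genes. The lower one was the Mediator subunit gene Med12 (-0.90 ± 0.26, limma adjusted p = 0.0326). Zfp219, a zinc-finger partner of Sox9, averaged 1290.3 ± 151 normalized counts in double-positive, 1483 ± 75.2 in RFP-only and 563 ± 125 in GFP-only cells. Its differences from GFP-only cells were 1.21 ± 0.24 (limma adjusted p = 0.0106) and 1.42 (adjusted p = 0.0017). Arid5b, which recruits a histone demethylase to Sox9 targets, averaged 1398 ± 277 in double-positive, 2185 ± 255 in RFP-only and 625 ± 230.1 in GFP-only cells (SD, n = 3 each), with differences of 1.20 ± 0.28 (limma adjusted p = 0.0251) and 1.86 (adjusted p = 0.00101). Smad3, a TGF-beta signal carrier that binds Sox9, was higher by 1.58 ± 0.37 in double-positive (adjusted p = 0.0257) and 1.40 in RFP-only cells (adjusted p = 0.0219). The other 6 of the 12 passed in neither of these comparisons. Between double-positive and RFP-only cells 0 of the 12 were called by limma, edgeR or DESeq2, and 1 had an unadjusted p under 0.05. Limma called 2.85% of all genes there.

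The 11 other Sox genes were low. Sry had no read, and Sox1, Sox14 and Sox15 did not pass the filter, which left 7. RFP-only cells had 2 of the 7 higher than GFP-only cells, where 11.8% of all genes were higher. Both are of the SoxF group that acts in blood vessels. Sox7 averaged 182 ± 77.4 normalized counts in double-positive, 182 ± 43.8 in RFP-only and 49.7 ± 47.4 in GFP-only cells, and Sox17 125 ± 87.1, 161 ± 20.1 and 47.5 ± 10.6 (SD, n = 3 each). The log2 differences were 2.24 ± 0.63 for Sox7 (limma adjusted p = 0.0285) and 1.76 ± 0.51 for Sox17 (adjusted p = 0.0323). EdgeR called 1 of the 7 there and DESeq2 3. The list of 8 endothelial markers holds 3 SoxF genes itself; its 5 other genes summed to 656 to 3355 in double-positive, 3136 to 4017 in RFP-only and 314 to 796 in GFP-only libraries, with none at 0, and their part in the SoxF values was not tested. In limma 0 of the 7 were called in the other 2 comparisons. Of all genes, 8.29% were called for double-positive against GFP-only and 2.85% for double-positive against RFP-only. At an unadjusted p under 0.05 there were 3 and 2 of the 7 in the same order. EdgeR also called 0 in both, and DESeq2 called 1 in each.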

How the data were processed

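Poly(A) RNA from sorted cells was sequenced after Nextera XT library preparation, per the labels' protocols. FastQC, STAR, Salmon, DESeq2 and mm10 are named in the submitters' processing notes, with no roles given. The authors deposited 1 table of normalized counts, a signal scale: each value was a whole number of reads (within 0.001 read, 100% of values) divided by a factor of its library. Of 54532 identifiers, 54409 matched GENCODE M21 and 123 did not; 23956 genes had no read.

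From these values log2(normalized count + 1) was computed for genes with a mean of at least 10, and limma 3.58.1 (R 4.3.3) was fitted over all 9 libraries with a mean-variance trend. The columns are normalized, so edgeR 4.0.16 and DESeq2 1.42.0, run on the recovered reads, are alternatives. Genes were named if they are members, or among the 4 smallest adjusted p of a list. Members and lists were chosen with earlier results of these data known. The numbers pair libraries because the labels give them as litters: residuals of the same litter had a median correlation of 0.10 (-0.04 to 0.15, 9 pairs), against -0.04 (18 pairs) between litters. The methods were tested on simulated data. Ratios were tested by exact permutation. Other cell types were read from marker sums; some listed markers are not reported here.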

Additional observations from a re-analysis of the deposited data

How the results depend on the processing

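The 36 results for single genes and ratios were recomputed under 672 alternatives in all: 628 kept their direction and their side of the threshold, 24 lost the call, 11 gained it and 9 changed sign. For double-positive against GFP-only cells, limma called 1472 genes, the fit of those 2 populations alone 697, DESeq2 2780, and fits without 1 library 637 to 1582, with 855 when double-positive litter 1 was left out and 637 when double-positive litter 2 was. For RFP-only against GFP-only cells 3601 genes were called, and 2202 to 3723 without 1 library, with 2268 when RFP-only litter 1 was left out and 2202 when RFP-only litter 5 was. For double-positive against RFP-only cells 506 were called, 1008 with those 2 populations alone, 1152 with DESeq2 and 216 to 1070 without 1 library. That count was 216 and 235 when double-positive litter 1 or 5 was left out, 284, 224 and 242 when RFP-only litter 1, 2 or 5 was, and 1070 when GFP-only litter 5 was. Of the 10 genes, those called for double-positive against GFP-only cells were 1, but 2 under quantile normalization, 2 with litter as a replicate block, 3 with DESeq2 and 1 to 2 without 1 library. They were 7 for RFP-only against GFP-only cells (6 to 8 without 1 library) and 5 for double-positive against RFP-only cells (4 to 6). The block, whose pairing comes from the labels, changed 2 calls of single genes, Sox11 (double-positive against GFP-only, 0.86, limma adjusted p = 0.0268) and Sox10 (double-positive against RFP-only, 1.49, adjusted p = 0.0622), and it left 0 of the 6 ratios called in place of 2. Without 1 library 0 to 4 ratios were called: 4 when RFP-only litter 5 was left out, and 0 when double-positive litter 1 or 2, RFP-only litter 1 or any GFP-only library was. Signs turned in comparisons that had not passed. Double-positive against GFP-only gave 0.16 for Sox6 and 0.12 for Sox9 under quantile normalization, and for Sox6 -0.35 to 0.15 without 1 library. Without 1 library RFP-only against GFP-only ran from -0.019 to 0.35 for Sox11. Double-positive against RFP-only ran from -0.012 to 0.22 for Sox12 and from -0.011 to 0.29 for Sox13. The log2 ratio of Sox5 to Sox6, RFP-only minus GFP-only, ran from -0.016 to 1.42. The cause of each such change was not tested. With longest-transcript lengths the SoxC shares moved by less than 1 SD, but the SoxD shares by more: 9.13%, 3.29% and 11.6% in double-positive, RFP-only and GFP-only cells, in place of 5.49%, 2.56% and 7.20%.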

Other observations

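Marker lists of other tissues are set beside the Sox values, as summed normalized counts in each of the 3 libraries of a population. Such sums do not give the makeup of the populations. The 8 muscle markers summed to 574 to 1839 in double-positive, 4466 to 15827 in RFP-only and 521 to 1011 in GFP-only libraries. Tendon markers, 5 genes, summed to 8854 to 16787 in double-positive, 19458 to 22979 in RFP-only and 2236 to 3193 in GFP-only libraries. The 8 myeloid markers summed to 1733 to 10059 in double-positive, 1043 to 2870.2 in RFP-only and 32.2 to 274 in GFP-only libraries. Pericyte markers, 6 genes, summed to 9321 to 18737 in double-positive, 11644 to 16058 in RFP-only and 14986 to 17895 in GFP-only libraries; in GFP-only libraries this sum was mostly Cspg4, which was lower in RFP-only than GFP-only cells in limma, whereas the other 5 were higher there, and double-positive cells had 3 higher than GFP-only cells and none lower. The 6 epidermis markers summed to 845 to 1088 in double-positive, 545 to 1033 in RFP-only and 546 to 1269.6 in GFP-only libraries. Globin and other erythroid markers, 6 genes, summed to 7832 to 75436 in double-positive, 32536 to 109007 in RFP-only and 4875 to 37095 in GFP-only libraries. None of these markers was at 0 over all libraries, and the part of these cells in the Sox values was not tested.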
